A study of Mus musculus with 36 samples.

Results

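In the fast extensor digitorum longus (EDL) muscle of mice, the RNA change in animals labelled as lacking ERRbeta and ERRgamma in muscle was set against the change in animals labelled as lacking ERRalpha. The measure was a difference of effects, computed per gene as (ERRbeta/ERRgamma dmKO minus their wild types) minus (libraries labelled ERRalpha mKO minus their wild types). It used the 12 EDL libraries of these 4 groups, 3 per group, of 36 libraries in the series. Column names gave the muscle and the Cre mark, and the class for all but the 6 ERRalpha EDL columns, which were placed by animal number. No measured value entered this sorting of columns into groups, but the comparison was chosen with earlier results of these data known.

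The groups were, in EDL, ERRbeta/ERRgamma dmKO and their wild types, and libraries labelled ERRalpha mKO and their wild types. Per the labels' protocols all animals were males of 1 year on the C57BL/6JBom background, housed near 22 °C under 12 h of light. Floxed alleles were recombined by Cre under the human skeletal alpha-actin promoter, which is active in muscle fibres, so nerve, vessel, fat and connective tissue cells of the muscle keep the genes. FXp in a column name was taken to mean floxed alleles with Cre, and FX- floxed alleles without it. The 6 columns without class letters carry animal numbers also found among ERRalpha soleus columns. Every direction below depends on this reading. The Esrra signal does not bear out the label of the libraries labelled ERRalpha mKO, with values given before the results, so they are called by their label throughout. The name ERRbeta/ERRgamma dmKO is likewise only a label, as neither Esrrb nor Esrrg was called lower in those libraries. A signal per gene cannot show loss of only a floxed part, so neither label is shown to be wrong. All 12 animals also gave a soleus library, and no animal number was shared between the 4 EDL groups. EDL of ERRalpha/ERRgamma dmKO and their own wild types, 3 libraries each with the same Cre, is used at the end.

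The estrogen-related receptors are orphan nuclear receptors that bind DNA as monomers or dimers at an extended half-site and activate genes with coactivators of the PGC-1 family. In muscle they are known for driving genes of the respiratory chain, the tricarboxylic acid (TCA) cycle and fatty acid oxidation. ERRbeta and ERRgamma are also known for promoting slow and oxidative fibre properties. EDL is built mainly of fast glycolytic fibres, with few slow fibres and some fast oxidative IIA fibres.

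The promoters of the genes that passed the test were searched for the core half-site of these receptors, AAGGTCA, on both strands, in windows of 250 bases before to 50 bases after each start (RefSeq, GRCm38.p6). The 3 promoters below are the ones that held it, each gene being one whose difference of effects was higher, and the capitals mark the match. Ptpmt1 makes a mitochondrial phosphatase of cardiolipin synthesis, Isca1 an iron-sulfur cluster assembly protein, and Timm23 the channel of the inner membrane protein translocase.
Ptpmt1, chr2:90918001-90918300, minus strand: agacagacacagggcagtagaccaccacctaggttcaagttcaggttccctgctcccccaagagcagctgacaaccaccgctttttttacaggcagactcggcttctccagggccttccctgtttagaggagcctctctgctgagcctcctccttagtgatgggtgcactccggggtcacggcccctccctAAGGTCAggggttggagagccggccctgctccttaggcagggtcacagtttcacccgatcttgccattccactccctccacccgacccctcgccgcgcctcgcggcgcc
Isca1, chr13:59769740-59770039, minus strand: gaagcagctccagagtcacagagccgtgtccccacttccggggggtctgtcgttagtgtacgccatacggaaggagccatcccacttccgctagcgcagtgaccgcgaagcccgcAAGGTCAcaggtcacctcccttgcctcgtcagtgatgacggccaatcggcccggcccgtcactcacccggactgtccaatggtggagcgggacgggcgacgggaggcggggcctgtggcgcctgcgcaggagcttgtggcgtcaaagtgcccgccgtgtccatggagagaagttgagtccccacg
Timm23, chr14:32201842-32202141, minus strand: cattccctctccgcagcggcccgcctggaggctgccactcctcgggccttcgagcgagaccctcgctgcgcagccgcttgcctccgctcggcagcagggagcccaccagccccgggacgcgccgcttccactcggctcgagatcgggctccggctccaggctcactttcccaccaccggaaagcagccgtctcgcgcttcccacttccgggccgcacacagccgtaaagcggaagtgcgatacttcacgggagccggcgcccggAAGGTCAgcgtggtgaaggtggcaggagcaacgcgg
The matches began 59 and 135 bases before the start in Ptpmt1 and Isca1, and 15 bases after it in Timm23, all on the strand of the gene. They made up 3 of 22 windows of the genes whose difference was higher (20 of 22 genes had a window), against 0 of 38 windows of the genes whose difference was lower (30 of 33 genes had one), 3.278% of the windows of all tested genes and 4.718% of all RefSeq windows. The longer form TNAAGGTCA was in 0 windows of either set and in 0.7984% of the windows of tested genes. With so few windows these shares are descriptions.

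Signals are log2 values that the authors quantile normalized. Between 13689 and 14224 genes had a value in each of the 12 libraries. This count is the only trace of depth, which is otherwise unknown. Library pairs correlated at r = 0.980 to 0.986 within a group and 0.974 to 0.985 between groups, across genes. All 9 fast-fibre markers were detected in all 12 libraries, with summed linear signals of 27337 to 28665 in ERRbeta/ERRgamma dmKO, 27141 to 28354 in their wild types, 27486 to 27983 in libraries labelled ERRalpha mKO and 26707 to 28517 in their wild types. The 9 slow-fibre markers summed to 21.0 to 102 over the same libraries, far below the fast-fibre sums in each of them. Of 11 marker lists, the slow-fibre list was the one with called genes in the difference of effects. Red blood cell markers summed to 250 to 320 in ERRbeta/ERRgamma dmKO, 264 to 624 in their wild types, 126 to 186 in libraries labelled ERRalpha mKO and 302 to 365 in their wild types, and none of the 5 was called in either effect or in the difference. Fat markers summed to 123 to 142 in ERRbeta/ERRgamma dmKO, 163 to 182 in their wild types, 117 to 137 in libraries labelled ERRalpha mKO and 136 to 162 in their wild types, again with 0 called. The part of either cell type in the results was not tested. A gene was called at an adjusted p under 0.05 (limma, Benjamini-Hochberg over all tested genes), and changes are given ± SE, with 3 libraries per group.

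The receptor genes were read first, as a check of the labels. Esrra, the ERRalpha gene, was at 5.09, 4.92 and 5.03 in libraries labelled ERRalpha mKO, against 5.29, 5.12 and 5.20 in their wild types (-0.19 ± 0.12, adjusted p = 0.482). In EDL of ERRalpha/ERRgamma dmKO, the other class that names ERRalpha, it was at 3.19, 2.90 and 3.20, against 5.38, 5.33 and 5.26 in their wild types, and it fell by 2.23 ± 0.12 (adjusted p = 3.55e-15). In soleus the change was 0.33 ± 0.12 in libraries labelled ERRalpha mKO (adjusted p = 0.224) and -0.57 ± 0.12 in ERRalpha/ERRgamma dmKO (adjusted p = 0.000840). So the signal of Esrra fell in both muscles of ERRalpha/ERRgamma dmKO but was low in EDL only. In soleus of that class it was still at 5.12, 5.06 and 5.15, against 5.45, 5.66 and 5.95 in their wild types. The libraries labelled ERRalpha mKO had no called fall of Esrra in either muscle. Their label is not borne out by Esrra, and each direction drawn from them below is that of libraries so labelled. Signals are given per gene, so loss of only a floxed part of Esrra cannot be read from them. A kept signal therefore does not show that the gene was intact or the label wrong. Esrra overlaps Trmt112 on the other strand.

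For the other class, Esrra was at 5.05, 5.04 and 5.13 in ERRbeta/ERRgamma dmKO, against 4.92, 5.25 and 5.12 in their wild types. Esrrb had -0.18 ± 0.21 in ERRbeta/ERRgamma dmKO (adjusted p = 0.947), and Esrrg 0.48 ± 0.15 (adjusted p = 0.260), so neither gene that this class names was lower by the test. These signals do not bear out the label of this class either, and its directions below are those of libraries so labelled. As for Esrra, a signal per gene cannot show loss of only a floxed part, so the label is not shown to be wrong. In soleus Esrrg rose by 1.09 ± 0.15 in ERRbeta/ERRgamma dmKO (adjusted p = 5.0e-05). Esrrg also rose in EDL of libraries labelled ERRalpha mKO (0.61 ± 0.15) and of ERRalpha/ERRgamma dmKO (0.51 ± 0.15), a class that names it, so its signal did not follow the labels. Esrrb fell in EDL of ERRalpha/ERRgamma dmKO (-1.60 ± 0.21), a class that does not name it. In EDL labelled ERRalpha mKO, which does not name it either, Esrrb had -0.66 ± 0.21 and was not called (adjusted p = 0.0799). The difference of effects was 0.17 ± 0.16 for Esrra, 0.48 ± 0.30 for Esrrb and -0.13 ± 0.21 for Esrrg, with none called.

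The direct test of the difference of effects called 55 of 13254 genes (0.415%), of which 22 were higher and 33 lower, and 1141 genes had an unadjusted p under 0.05. The median difference over all genes was 0.020. All 22 genes with a higher difference were genes that fell in libraries labelled ERRalpha mKO and were not called in ERRbeta/ERRgamma dmKO. Of these, 13 encode subunits of the respiratory chain or cytochrome c. Of the 33 genes with a lower difference, 22 rose in libraries labelled ERRalpha mKO and were not called in ERRbeta/ERRgamma dmKO. Of those 22, 3 had missing values among the ERRalpha wild types: AI593442 had a value in 1 of these libraries, and Cstad and 1700040L02Rik in 2, so the call of AI593442 has no spread of its own in that group. Another 5 (Myl2, Myl3, Myh2, Pdlim1 and Zfp7) fell in ERRbeta/ERRgamma dmKO and were not called in libraries labelled ERRalpha mKO. Both effects were called, in opposite directions, for Ldhb and Myom3, and neither was called for Csrp3, Bdh1, Klhl34 and Abhd17c. The median difference was 0.61 for the 22 higher genes and -1.95 for the 33 lower genes. Fitted on its 12 libraries only, the difference called 24 genes, 20 of which are among the 55. Leaving out 1 library at a time called 34 (without ERRbeta/ERRgamma dmKO library 3) or 35 (without ERRbeta/ERRgamma wild-type library 1) to 55 genes, and array weights called 108, with all 55 among them. With 1 library left out at a time, Zfp7 was called in 4 of 12 fits (adjusted p up to 0.0932, without ERRalpha wild-type library 3), Klhl34 in 7 of 12 fits (adjusted p up to 0.0716, without library 3 labelled ERRalpha mKO) and Abhd17c in 3 of 12 fits (adjusted p up to 0.163, without library 2 labelled ERRalpha mKO). None of the 3 was called in a fit of the 12 or of the 18 EDL libraries alone, and St3gal5, named below, was not in that of the 12 (adjusted p = 0.0608).

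**Figure D1:**
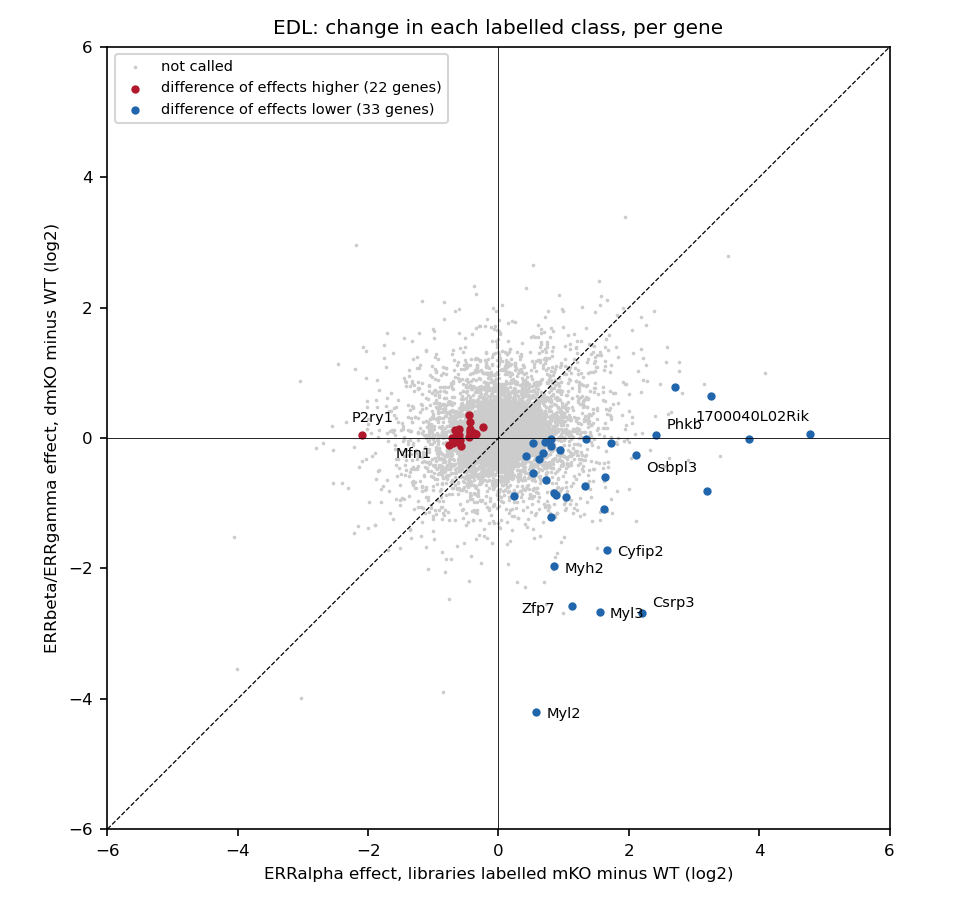
Each point is 1 of 13254 genes, with the change in ERRbeta/ERRgamma dmKO on the vertical axis and the change in libraries labelled ERRalpha mKO on the horizontal axis, both in log2 units. On the dashed line the effects are equal. The 22 red points lie above it, left of 0, and the 33 blue points lie below it, with Myl2 at -4.21 on the vertical axis and Phkb at 2.42 on the horizontal axis.

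The effects alone called 29 of 13333 genes in ERRbeta/ERRgamma dmKO (0.218%) and 436 of 13285 in libraries labelled ERRalpha mKO (3.28%). A gene called in one class and not in the other is not thereby shown to differ, and the 55 genes are those for which the difference itself passed. Setting the knockout libraries against each other called 469 of 13307 genes (3.52%), among them 21 of the 22 higher and 27 of the 33 lower genes. The difference of effects equals this comparison minus that of the wild types, so the overlap is partly built in. Setting the wild types of the 2 classes against each other called 7 of 13315 genes (0.0526%), among them 0 of the 22 and 1 of the 33, St3gal5, a ganglioside-synthesis enzyme. These counts shifted with single libraries. The ERRbeta/ERRgamma effect called 16 genes without dmKO library 2, and 11 and 19 without wild-type libraries 2 and 3. The ERRalpha effect called 238, 260 and 225 without mKO libraries 1, 2 and 3, and 276 and 280 without wild-type libraries 2 and 3. Between the knockouts, 238, 299 and 303 genes were called without the 3 dmKO libraries in turn, and 247 and 312 without mKO libraries 1 and 3. Between the wild types it was 3 without ERRbeta/ERRgamma library 3 and 11 without ERRalpha library 2.

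In the respiratory chain the classes parted by modest amounts in one direction. Of 81 nuclear genes for complexes I to V and cytochrome c, 13 had a called higher difference, 0 a lower one, and 74 lay above 0, against 52.9% of all genes (background for a higher call, 0.166%). The median difference was 0.28. The median effect was -0.015 in ERRbeta/ERRgamma dmKO, where 0 of 81 genes were called, and -0.30 in libraries labelled ERRalpha mKO, where 44 fell (1.46% of all genes fell there). Between the knockouts 42 genes were called higher in ERRbeta/ERRgamma dmKO (2.13% of all genes), and between the wild types 0 were called. The median lay above 0 in each of the 4 lists, at 0.29 for the 37 genes of complex I (8 called), 0.14 for 14 genes of complex II, complex III and cytochrome c (3 called), 0.30 for the 14 of cytochrome c oxidase (2 called) and 0.24 for the 16 of ATP synthase (0 called, 16 above 0). The count of 13 was 4 in a fit of the 12 libraries alone and 8 without ERRbeta/ERRgamma dmKO library 3, ERRbeta/ERRgamma wild-type library 1 or library 1 labelled ERRalpha mKO, while the median difference of the 81 genes ran from 0.23 to 0.32 when any 1 library was left out.

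Complex I, which takes electrons from NADH, held the most called genes. Ndufa13 (chromosome 8, 69894180 to 69902558, minus strand), an accessory subunit also known as GRIM-19, was at 6.24, 6.31 and 6.39 in ERRbeta/ERRgamma dmKO, against 6.05, 6.29 and 6.21 in their wild types. The libraries labelled ERRalpha mKO had 5.60, 5.58 and 5.72, against 6.19, 6.24 and 6.46 in their wild types. The libraries labelled ERRalpha mKO were the 3 lowest of the 12, and the other class showed no such drop. The difference of effects was 0.79 ± 0.12 (adjusted p = 0.000971). Ndufa13 overlaps Yjefn3 on the same strand, so reads could be shared.

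Ndufa1, a small membrane subunit of the same complex, was at 7.12, 7.04 and 7.18 in ERRbeta/ERRgamma dmKO, against 7.02, 7.18 and 7.13 in their wild types. Its signals were 6.27, 6.28 and 6.49 in libraries labelled ERRalpha mKO, against 7.03, 6.95 and 7.20 in their wild types. Again the libraries labelled ERRalpha mKO lay below all others, and the difference was 0.71 ± 0.13 (adjusted p = 0.00737). Ndufb7, an intermembrane-space subunit, differed by 0.65 ± 0.10 (adjusted p = 0.00199), with an effect of 0.044 ± 0.073 in ERRbeta/ERRgamma dmKO and -0.60 ± 0.073 in libraries labelled ERRalpha mKO. Ndufa4, listed with complex I although its protein is now placed in cytochrome c oxidase, differed by 0.68 ± 0.14 (adjusted p = 0.0192), and Ndufa5 by 0.59 ± 0.11 (adjusted p = 0.00919). The remaining 3 called subunits were Ndufa8 (0.55 ± 0.093), Ndufb8 (0.54 ± 0.091) and Ndufb10 (0.45 ± 0.10). With 1 library left out at a time, Ndufa4 was called in 7 of 12 fits (adjusted p up to 0.0721, without library 1 labelled ERRalpha mKO), and Ndufb10 in 3 of 12 fits (adjusted p up to 0.160, without ERRbeta/ERRgamma wild-type library 1). The other 6 were called in all 12, and a fit of the 12 libraries alone did not call Ndufa5 (adjusted p = 0.0681), Ndufa8 or Ndufb8 (adjusted p = 0.0808 for both). Ndufb10 was called neither there (adjusted p = 0.113) nor in a fit of the 18 EDL libraries (adjusted p = 0.0566).

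Downstream of complex I, cytochrome c, Cycs, which carries electrons from complex III to cytochrome c oxidase, was at 7.73, 7.65 and 7.75 in ERRbeta/ERRgamma dmKO, against 7.41, 7.64 and 7.66 in their wild types. EDL labelled ERRalpha mKO showed 6.73, 6.92 and 7.01, against 7.38, 7.42 and 7.67 in their wild types. The libraries labelled ERRalpha mKO were again the 3 lowest, the groups of the other class overlapped, and the difference was 0.74 ± 0.12 (adjusted p = 0.00236). Uqcrq of complex III differed by 0.62 ± 0.12 (adjusted p = 0.00737) and Uqcrh, its hinge protein, by 0.47 ± 0.10 (adjusted p = 0.0319). In cytochrome c oxidase, Cox4i1, a regulatory subunit, differed by 0.56 ± 0.12 (adjusted p = 0.0192) and Cox7a2 by 0.51 ± 0.11 (adjusted p = 0.0215). Cox4i1 overlaps Emc8 on the other strand and Gm20388 on its own. With 1 library left out at a time, Cox4i1 was called in 8 of 12 fits (adjusted p up to 0.0923, without ERRbeta/ERRgamma dmKO library 3), Cox7a2 in 5 of 12 fits (adjusted p up to 0.104, without ERRbeta/ERRgamma wild-type library 1) and Uqcrh in 3 of 12 fits (adjusted p up to 0.107, without ERRbeta/ERRgamma wild-type library 1). A fit of the 12 libraries alone called none of these 5, with adjusted p = 0.0544 for Cycs, Uqcrh and Cox4i1, 0.0550 for Uqcrq and 0.124 for Cox7a2, and a fit of the 18 EDL libraries did not call Cox7a2 (adjusted p = 0.0805). In ATP synthase the lowest p belonged to Atp5g1, a gene for the c subunit of the rotor, at 0.43 ± 0.11 (adjusted p = 0.0907).

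**Figure D2:**
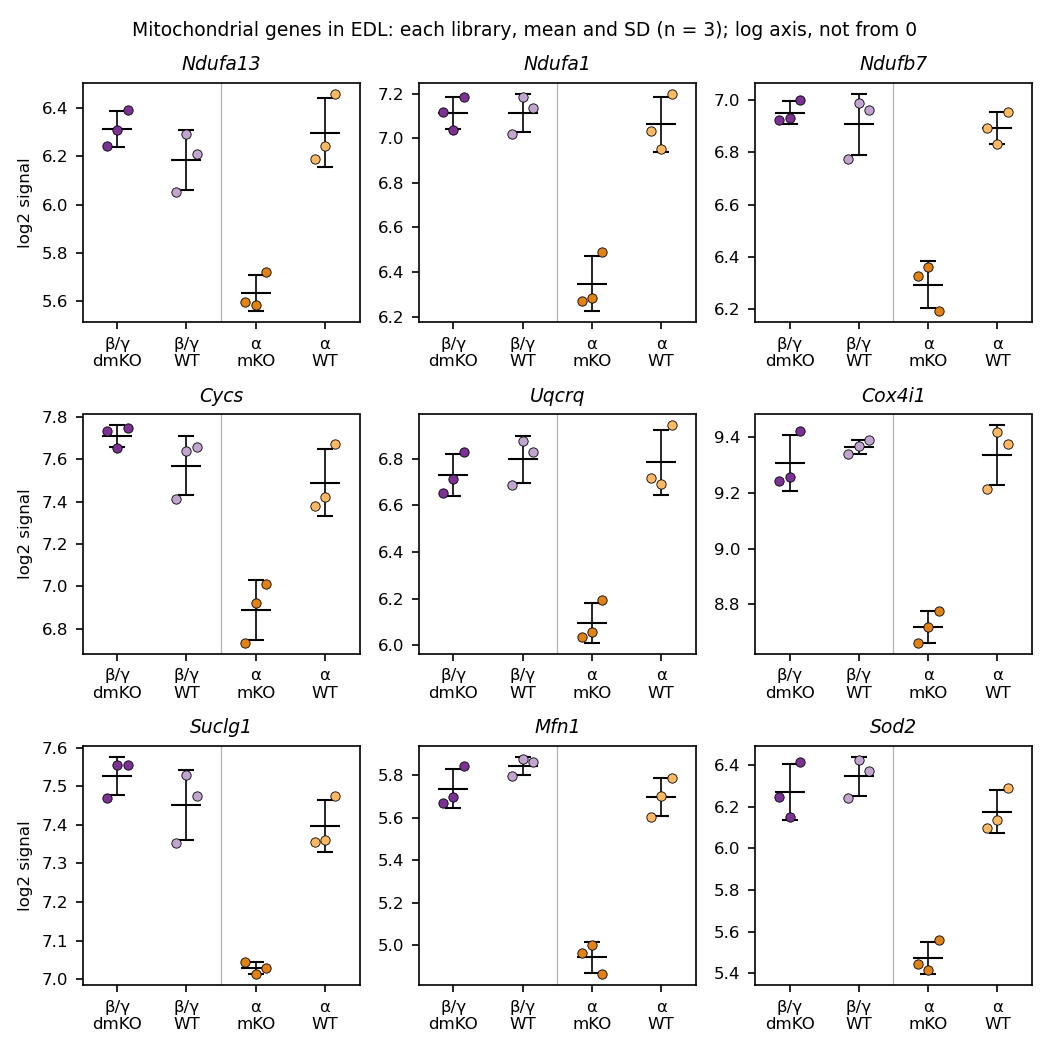
Each panel shows 1 gene, with the log2 signal of each library as a point and the mean with its SD (n = 3) as bars, for ERRbeta/ERRgamma dmKO and their wild types, then libraries labelled ERRalpha mKO and their wild types. The points labelled ERRalpha mKO lie below their wild types in all 9 panels, while the ERRbeta/ERRgamma dmKO points overlap theirs. For Mfn1 the points labelled ERRalpha mKO run between 4.86 and 5.0 against 5.61 and 5.79 in their wild types.

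Other mitochondrial functions gave a few called genes each. Mfn1 (chromosome 3, 32529465 to 32579239, plus strand), a GTPase that fuses outer membranes, was at 5.67, 5.70 and 5.84 in ERRbeta/ERRgamma dmKO, against 5.80, 5.88 and 5.86 in their wild types. For libraries labelled ERRalpha mKO the values were 4.96, 5.0 and 4.86, against 5.61, 5.70 and 5.79 in their wild types. Those 3 libraries labelled ERRalpha mKO were the lowest of the 12, and the difference was 0.65 ± 0.12 (adjusted p = 0.00610). Timm23, whose promoter is printed above, differed by 0.40 ± 0.089 (adjusted p = 0.0372). They were the 2 called of 40 genes of import, dynamics and quality control (median 0.020). Mfn1 kept its call without any 1 library, and Timm23 was called in 2 of 12 fits (adjusted p up to 0.114, without ERRbeta/ERRgamma wild-type library 1) and not in a fit of the 12 libraries alone (adjusted p = 0.0709).

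Sod2, the superoxide dismutase of the mitochondrial matrix, was at 6.25, 6.15 and 6.42 in ERRbeta/ERRgamma dmKO, against 6.24, 6.42 and 6.37 in their wild types. Signals of 5.44, 5.41 and 5.56 were measured in libraries labelled ERRalpha mKO, against 6.10, 6.14 and 6.29 in their wild types. The difference of 0.63 ± 0.13 (adjusted p = 0.0129) was the one call among 23 antioxidant genes. Of 28 genes of the TCA cycle and pyruvate dehydrogenase, Suclg1, a subunit of succinyl-CoA ligase, was called (0.44 ± 0.10, adjusted p = 0.0444), and the list median was 0.14. Isca1 differed by 0.58 ± 0.11 (adjusted p = 0.00737) and Ptpmt1 by 0.68 ± 0.16 (adjusted p = 0.0471). Isca1 overlaps Gm49354 and Ptpmt1 overlaps Kbtbd4. Isca1 was called without any 1 library, Sod2 in 10 of 12 fits (adjusted p up to 0.0670, without ERRbeta/ERRgamma dmKO library 3), Suclg1 in 1 of 12 fits (adjusted p up to 0.164, without ERRbeta/ERRgamma wild-type library 1) and Ptpmt1 in 3 of 12 fits (adjusted p up to 0.188, without ERRbeta/ERRgamma wild-type library 1). In a fit of the 12 libraries alone Sod2 (adjusted p = 0.0544), Suclg1 (adjusted p = 0.0562) and Ptpmt1 (adjusted p = 0.136) were not called. Ptpmt1 was not called in a fit of the 18 EDL libraries either (adjusted p = 0.108), nor with the animal as a block (adjusted p = 0.0522).

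No fatty acid oxidation gene was called in the EDL difference (0 of 24, median -0.15). There the median effect was -0.25 in ERRbeta/ERRgamma dmKO and -0.15 in libraries labelled ERRalpha mKO, with 0 called in either. Acot13, a thioesterase, had the lowest p (0.40 ± 0.14, adjusted p = 0.266). Lipid uptake and storage (0 of 18, median -0.095) and the mitochondrial ribosome (0 of 75, median 0.076) had no called gene either, nor did the coactivators and regulators of biogenesis (0 of 21, median 0.050). In the lipid list Cidea, a lipid-droplet protein, had -2.49 ± 0.58 (adjusted p = 0.0512), and among coactivators Tfb2m, a mitochondrial transcription factor, had 0.25 ± 0.098 (adjusted p = 0.429).

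**Figure D3:**
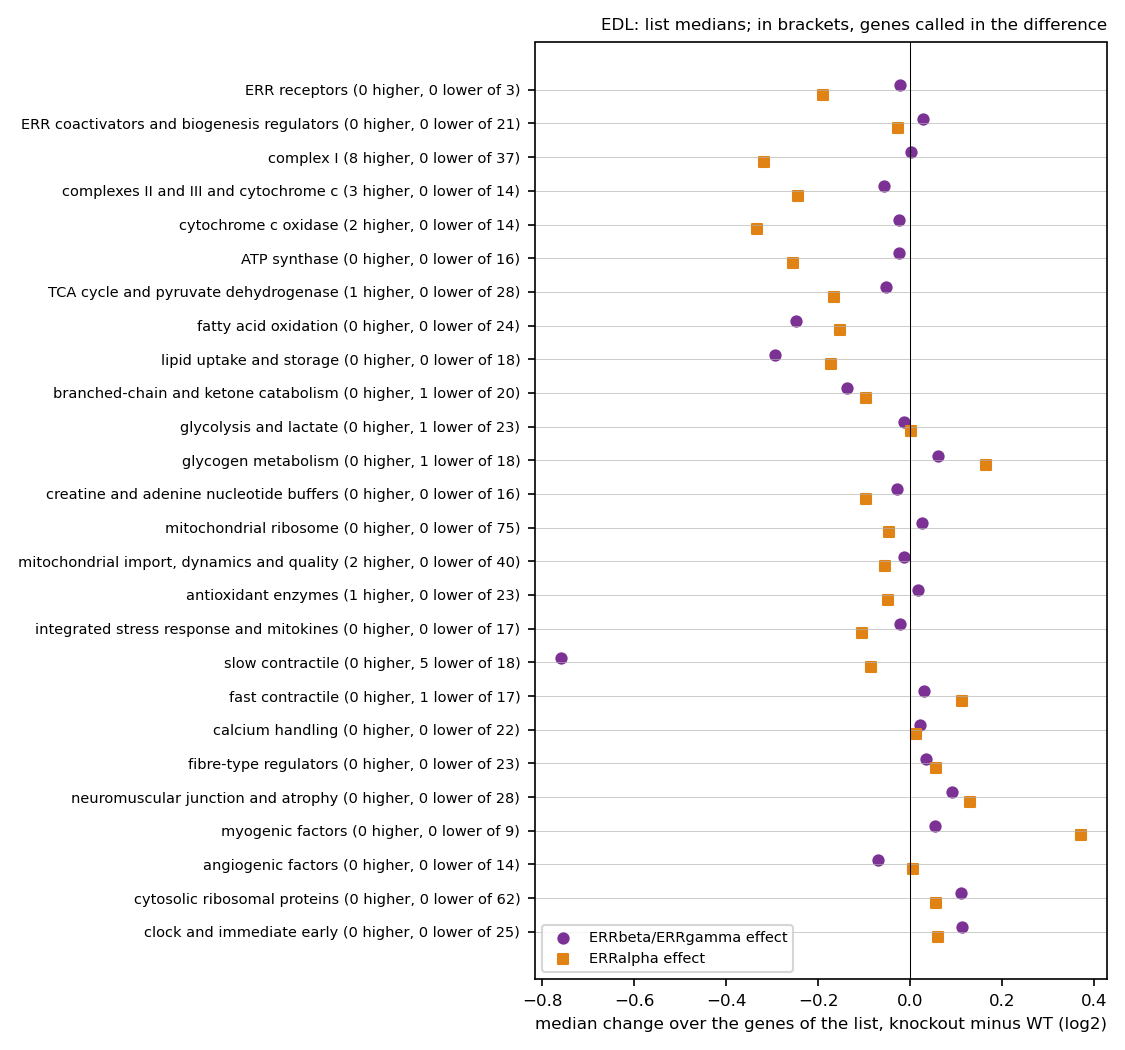
For each gene list, named on the vertical axis with its called genes in the difference of effects, the horizontal axis gives the median log2 change in ERRbeta/ERRgamma dmKO (circles) and in libraries labelled ERRalpha mKO (squares). The respiratory chain lists lie near 0 for ERRbeta/ERRgamma and between -0.24 and -0.33 for ERRalpha, and the slow contractile list lies at -0.76 for ERRbeta/ERRgamma and -0.086 for ERRalpha.

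The slow contractile genes had differences of the other sign. Of 18 genes, 5 had a called lower difference (Csrp3, Myl2, Myl3, Myoz2 and Myom3) and 0 a higher one, against 0.249% of all genes called lower, and the median difference was -0.92. The median effect was -0.76 in ERRbeta/ERRgamma dmKO, with 3 genes that fell (0.158% of all genes fell there), and -0.086 in libraries labelled ERRalpha mKO, with 2 that rose (1.82% of all genes). Between the wild types the median difference in this list was 0.84 (ERRbeta/ERRgamma wild types minus ERRalpha wild types), against 0.035 over all genes. There 16 of 18 genes lay above 0 and 0 were called. Between the knockouts (ERRbeta/ERRgamma dmKO minus libraries labelled ERRalpha mKO) the list median was -0.18, against 0.057 over all genes, with 12 of 18 genes below 0. Of the 18 genes 5 were called lower and 1 higher there, against 186 lower and 283 higher of all 13307 genes. Without library 2 of the ERRalpha wild types the median difference of effects was -0.44, and over the other libraries left out it was -0.76 to -1.18. A fit of the 12 libraries alone called 3 of the 18 genes, and a fit of the 18 EDL libraries 2.

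The summed linear signal of the 9 slow-fibre markers gives the level in each library. It was 41.1, 22.1 and 21.0 in ERRbeta/ERRgamma dmKO, against 91.9, 95.5 and 102 in their wild types. In libraries labelled ERRalpha mKO it was 73.4, 38.8 and 61.6, against 51.9, 26.7 and 48.4 in their wild types. The ERRbeta/ERRgamma wild types were the 3 highest of the 12 libraries, and library 2 of the ERRalpha wild types was the lowest of its group. All 9 markers were detected in all 12 libraries, and Myl2 and Myl3 were the 2 called in the difference. In bulk muscle fewer slow fibres and less of their RNA per fibre cannot be told apart, and the part of the markers in the results below was not tested.

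Myl2 (chromosome 5, 122100951 to 122113472, plus strand), the regulatory light chain of slow myosin, was at 2.20, 0.18 and 0.18 in ERRbeta/ERRgamma dmKO, against 4.86, 5.41 and 4.92 in their wild types. In libraries labelled ERRalpha mKO it was at 4.38, 3.52 and 3.81, against 3.69, 2.50 and 3.79 in their wild types. The first pair of groups did not overlap, the second did. Myl2 fell by 4.21 ± 0.63 in ERRbeta/ERRgamma dmKO, and the difference of effects was -4.78 ± 0.89 (adjusted p = 0.00656). Myl2 overlaps Ccdc63 on the other strand.

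Myl3, the essential light chain of slow myosin, was at 2.85, 1.23 and 0.96 in ERRbeta/ERRgamma dmKO, against 3.80, 4.75 and 4.50 in their wild types. The libraries labelled ERRalpha mKO had 4.59, 3.66 and 4.71, against 2.77, 1.93 and 3.60 in their wild types. The dmKO libraries were below their wild types, and the mKO libraries were above theirs. The difference was -4.22 ± 0.79 (adjusted p = 0.00656), with a called fall of 2.67 ± 0.56 in ERRbeta/ERRgamma dmKO and 1.55 ± 0.56 in libraries labelled ERRalpha mKO (adjusted p = 0.139). Fitted on the 18 EDL libraries alone, the differences of Myl2 (adjusted p = 0.0798) and Myl3 (adjusted p = 0.0931) were not called by limma. Myl3 overlaps Pth1r on the other strand.

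Csrp3 (chromosome 7, 48830398 to 48848033, minus strand), the muscle LIM protein of the Z-disc, had the largest difference in size of the called genes, -4.88 ± 0.94 (adjusted p = 0.00868), with neither effect called on its own. It was at 2.96, 2.09 and 2.14 in ERRbeta/ERRgamma dmKO, against 4.92, 4.54 and 5.78 in their wild types. Its signals were 4.42, 4.72 and 6.10 in libraries labelled ERRalpha mKO, against 3.28, 1.16 and 4.21 in their wild types. The ERRalpha wild types spread widely, with library 2 lowest. The call held with any 1 library left out and was lost in a fit of the 12 libraries alone (adjusted p = 0.0601).

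Myoz2, a calcineurin-binding Z-disc protein of slow fibres, was at 4.46, 4.46 and 4.66 in ERRbeta/ERRgamma dmKO, against 5.38, 5.45 and 4.96 in their wild types. EDL labelled ERRalpha mKO showed 5.67, 5.16 and 6.25, against 4.77, 3.41 and 4.93 in their wild types. It rose in libraries labelled ERRalpha mKO by 1.32 ± 0.29, and the difference was -2.06 ± 0.41 (adjusted p = 0.0105), called in 11 of 12 fits (adjusted p up to 0.0515, without library 3 labelled ERRalpha mKO) but not in a fit of the 12 (adjusted p = 0.129) or of the 18 EDL libraries (adjusted p = 0.0904). Myom3, an M-band protein, was at 1.37, 1.14 and 1.05 in ERRbeta/ERRgamma dmKO, against 2.18, 2.43 and 2.60 in their wild types. For libraries labelled ERRalpha mKO the values were 2.40, 1.99 and 3.04, against 1.74, 1.48 and 1.77 in their wild types. For Myom3 each knockout group stood clear of its wild types, in opposite directions (-1.21 ± 0.23 in ERRbeta/ERRgamma dmKO and 0.81 ± 0.23 in libraries labelled ERRalpha mKO, both called), and the difference was -2.02 ± 0.33 (adjusted p = 0.00199).

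Of 17 fast contractile genes, Myh2 alone was called, and the list median was -0.010. Myh2 (chromosome 11, 67171027 to 67197517, plus strand), the heavy chain of IIA fibres, was at 4.99, 5.35 and 6.15 in ERRbeta/ERRgamma dmKO, against 7.55, 7.80 and 7.06 in their wild types. Signals of 7.44, 6.71 and 8.20 were measured in libraries labelled ERRalpha mKO, against 6.99, 5.75 and 7.06 in their wild types. Myh2 fell by 1.97 ± 0.35 in ERRbeta/ERRgamma dmKO, and the difference was -2.82 ± 0.49 (adjusted p = 0.00302). Pdlim1, a PDZ and LIM domain protein of the Z-disc and stress fibres, fell in ERRbeta/ERRgamma dmKO (-0.89 ± 0.17) and differed by -1.13 ± 0.24 (adjusted p = 0.0188), a call that held in 7 of 12 fits (adjusted p up to 0.0717, without ERRalpha wild-type library 2) but not in a fit of the 12 (adjusted p = 0.137) or of the 18 EDL libraries (adjusted p = 0.0904). The call of Myh2 was lost in a fit of the 12 libraries alone (adjusted p = 0.0823).

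**Figure D4:**
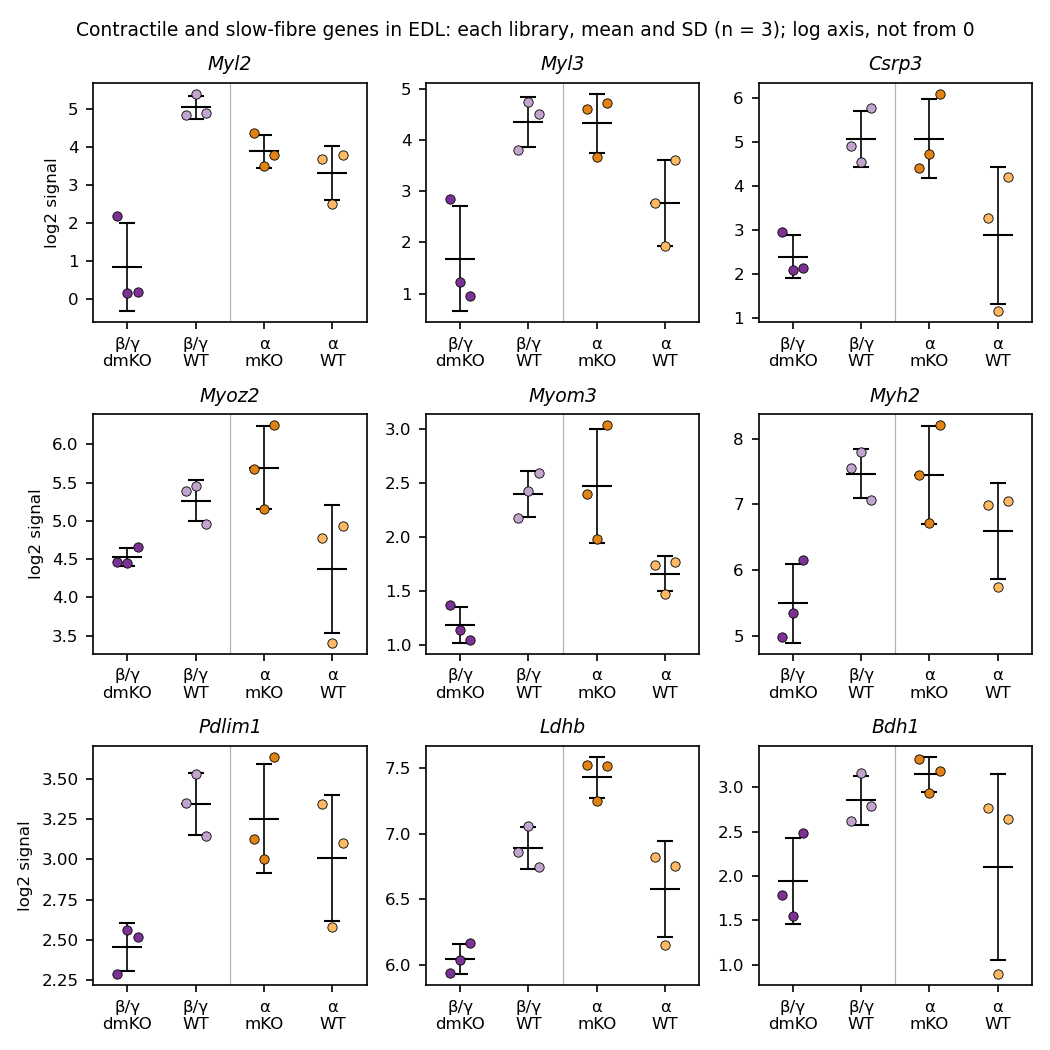
Each panel shows 1 gene, with the log2 signal of each library as a point and the mean with its SD (n = 3) as bars, for ERRbeta/ERRgamma dmKO and their wild types, then libraries labelled ERRalpha mKO and their wild types. The ERRbeta/ERRgamma dmKO points lie below their wild types in all 9 panels, and in the ERRalpha wild types library 2, the middle point, is the lowest of its group in each panel.

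Ldhb (chromosome 6, 142490249 to 142507957, minus strand), the heart-type subunit of lactate dehydrogenase, was called in both classes in opposite directions. It was at 5.94, 6.04 and 6.17 in ERRbeta/ERRgamma dmKO, against 6.86, 7.06 and 6.74 in their wild types, and fell by 0.84 ± 0.15. In libraries labelled ERRalpha mKO it was at 7.53, 7.25 and 7.51, against 6.82, 6.16 and 6.75 in their wild types, and rose by 0.85 ± 0.15. Neither pair of groups overlapped. The difference was -1.70 ± 0.21 (adjusted p = 3.85e-05), and Ldhb was the one called gene of 23 of glycolysis and lactate metabolism (median 0.028). Bdh1, which interconverts ketone bodies, differed by -1.95 ± 0.45 (adjusted p = 0.0399), the one call of 20 genes of branched-chain and ketone catabolism. For Bdh1 the effect was -0.91 ± 0.31 in ERRbeta/ERRgamma dmKO and 1.04 ± 0.31 in libraries labelled ERRalpha mKO, neither called, and library 2 of the ERRalpha wild types was lowest of its group (2.77, 0.90 and 2.65). With 1 library left out at a time Bdh1 was called in 4 of 12 fits (adjusted p up to 0.132, without ERRbeta/ERRgamma dmKO library 2), while Ldhb was called in all 12. In fits of the 12 and of the 18 EDL libraries Bdh1 was not called (adjusted p = 0.219 and 0.162), and Ldhb was.

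Phkb (chromosome 8, 85840959 to 86061376, plus strand), a regulatory subunit of phosphorylase kinase, which switches on glycogen breakdown, had the lowest p of all genes in the difference. It was at 5.91, 5.95 and 5.96 in ERRbeta/ERRgamma dmKO, against 5.93, 5.92 and 5.83 in their wild types. In libraries labelled ERRalpha mKO it was at 8.35, 8.45 and 8.03, against 5.90, 5.95 and 5.71 in their wild types. The 3 libraries labelled ERRalpha mKO lay between 8.03 and 8.45 and the other 9 between 5.71 and 5.96. The difference was -2.37 ± 0.21 (adjusted p = 4.92e-08). It was the one call among 18 genes of glycogen metabolism (median -0.11).

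Hspb7, a small heat shock protein of striated muscle, rose in libraries labelled ERRalpha mKO (1.64 ± 0.33) and differed by -2.24 ± 0.46 (adjusted p = 0.0173), with -0.60 ± 0.33 in ERRbeta/ERRgamma dmKO. Sbk2, a kinase gene that overlaps Ssc5d, differed by -1.38 ± 0.27 (adjusted p = 0.0114). Gm14325, a zinc finger gene with a near-identical copy, Gm14326, that may share reads, differed by 0.80 ± 0.18 (adjusted p = 0.0297). With 1 library left out at a time Hspb7 was called in 6 of 12 fits (adjusted p up to 0.0712, without ERRalpha wild-type library 2), Sbk2 in 11 of 12 fits (adjusted p up to 0.0521, without ERRbeta/ERRgamma wild-type library 3) and Gm14325 in 3 of 12 fits (adjusted p up to 0.103, without ERRbeta/ERRgamma dmKO library 3). A fit of the 12 libraries alone did not call Hspb7 (adjusted p = 0.0681) or Sbk2 (adjusted p = 0.0841), and a fit of the 18 EDL libraries did not call Hspb7 (adjusted p = 0.0713).

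Some genes outside the naming rule were picked after their values were seen. P2ry1, a receptor for ADP, was at 1.80, 1.59 and 1.69 in ERRbeta/ERRgamma dmKO, against 0.95, 2.09 and 1.88 in their wild types, and at -1.25, -0.50 and -0.93 in libraries labelled ERRalpha mKO, against 1.15, 1.11 and 1.36 in their wild types. Its difference of 2.15 ± 0.33 (adjusted p = 0.00130) was the largest higher one. Osbpl3, an oxysterol-binding protein family member, was at -1.71, -1.92 and -1.97 in ERRbeta/ERRgamma dmKO, against -1.75, -1.39 and -1.66 in their wild types, and at -0.41, -0.18 and 0.27 in libraries labelled ERRalpha mKO, against -2.45, -2.39 and -1.81 in their wild types. It differed by -2.38 ± 0.35 (adjusted p = 0.000956). Rgs2, a regulator of G-protein signalling, rose in libraries labelled ERRalpha mKO (1.72 ± 0.25) with -0.071 ± 0.25 in ERRbeta/ERRgamma dmKO, and differed by -1.79 ± 0.35 (adjusted p = 0.00963, not called in a fit of the 12 libraries alone). Cetn2, a centrin, Nxn, a thioredoxin-like oxidoreductase, and Filip1l likewise rose in libraries labelled ERRalpha mKO and differed by -0.83 ± 0.14, -0.91 ± 0.17 and -0.94 ± 0.15.

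The remaining lists held no called gene. They were calcium handling (0 of 22, median -0.0042), fibre-type regulators (0 of 23, -0.0052), neuromuscular junction and atrophy (0 of 28, -0.079), myogenic factors (0 of 9, -0.27), angiogenic factors (0 of 14, -0.043), ribosomal proteins of the cytosol (0 of 62, 0.068), clock and immediate early genes (0 of 25, -0.0050), creatine and adenine nucleotide buffers (0 of 16, 0.034) and the integrated stress response (0 of 17, 0.24). Musk, the kinase that clusters acetylcholine receptors, had -1.55 ± 0.37 (adjusted p = 0.0514), and Slc25a4, the ADP/ATP carrier, 0.32 ± 0.14 (adjusted p = 0.480).

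The EDL of ERRalpha/ERRgamma dmKO, in libraries that share none with the 12, gives the 55 genes a further reading in a class that also names ERRalpha (2416 of 13358 genes called, 18.1%). Of the 22 higher genes, whose signals fell in libraries labelled ERRalpha mKO, 20 fell in ERRalpha/ERRgamma dmKO, where 6.95% of all genes fell. Their median change there was -1.34, against 0.049 in ERRbeta/ERRgamma dmKO and -0.59 in libraries labelled ERRalpha mKO. Cycs had -2.0 ± 0.088, Mfn1 -1.63 ± 0.084 and Ndufa13 -1.15 ± 0.084. Of the 33 lower genes 15 rose there and 4 fell (11.1% and 6.95% of all genes). Phkb rose by 2.47 ± 0.15 there and by 2.42 ± 0.15 in libraries labelled ERRalpha mKO, and Osbpl3 by 2.03 ± 0.25 and 2.11 ± 0.25. Ldhb (-1.49 ± 0.15) and Bdh1 (-1.73 ± 0.31) fell there, while in libraries labelled ERRalpha mKO Ldhb rose. Myl2 (-1.06 ± 0.63, adjusted p = 0.271), Myl3 (1.07 ± 0.56, adjusted p = 0.204) and Myh2 (0.067 ± 0.35, adjusted p = 0.926) had no called change in ERRalpha/ERRgamma dmKO, and Csrp3 rose (2.58 ± 0.66).

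**Figure D5:**
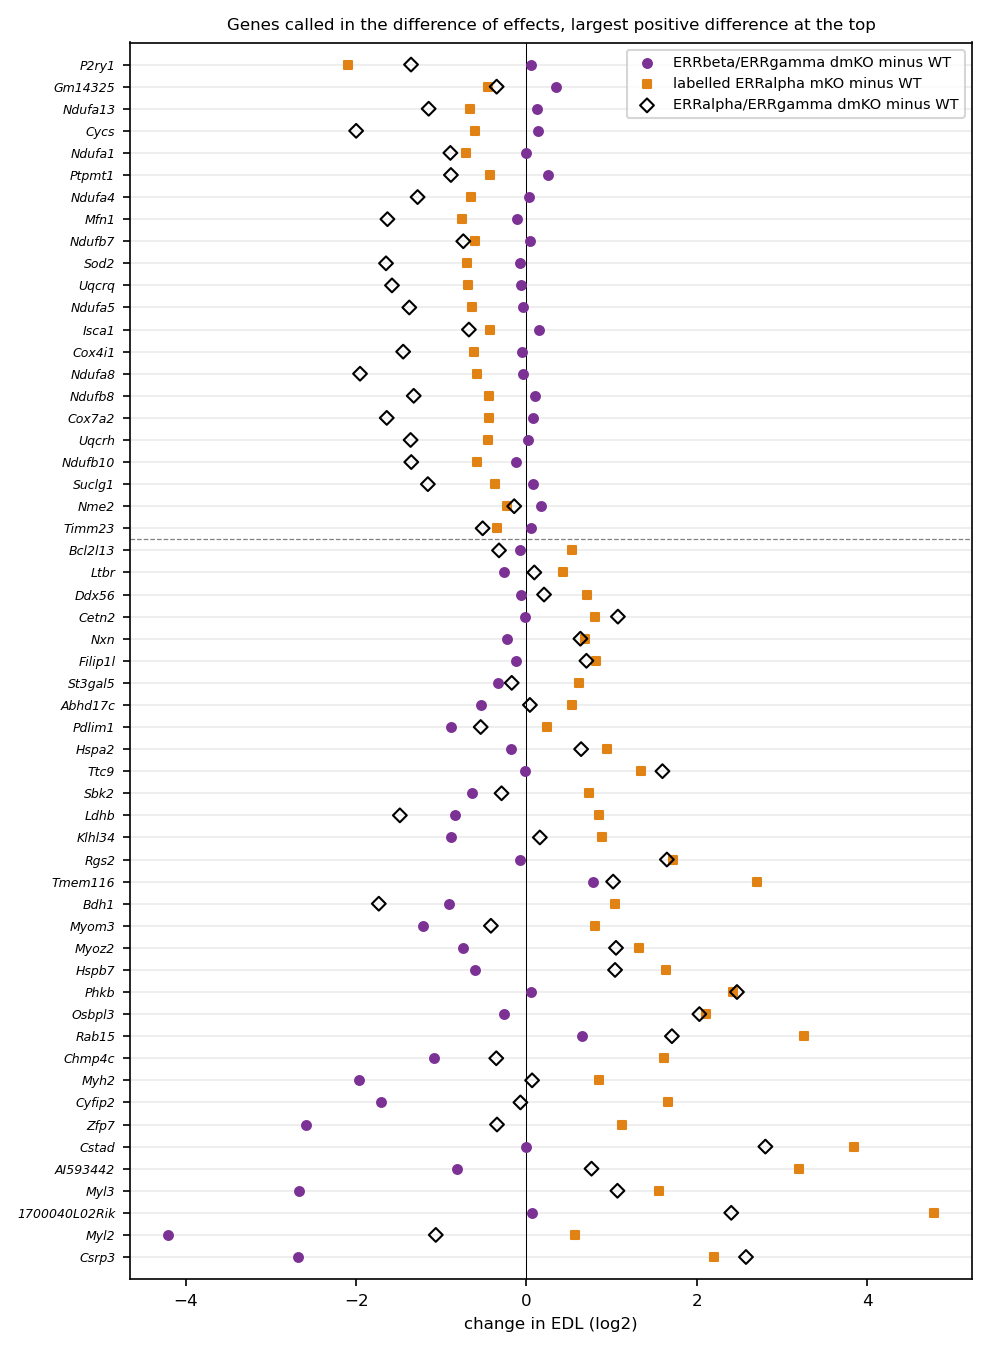
Each row is 1 of the 55 called genes, ordered by the difference of effects, with the log2 change in EDL on the horizontal axis for ERRbeta/ERRgamma dmKO (circles), libraries labelled ERRalpha mKO (squares) and ERRalpha/ERRgamma dmKO (open diamonds). Above the dashed line circles lie near 0 with squares and diamonds to their left. Below it the squares lie right of 0, with Phkb's square and diamond at 2.42 and 2.47.

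The same difference of effects was taken in soleus, a slow muscle of the same 12 animals. It called 71 of 13350 genes (0.532%), 12 higher and 59 lower (0.442% of all genes lower). Of the 22 genes that were higher in EDL, 18 lay above 0 in soleus (56.9% of all genes did) with a median of 0.096, and 0 were called. Of the 33 that were lower, 22 lay below 0 (43.1% of all genes did), with 3 called lower. Cetn2 had -0.88 ± 0.14 in soleus and -0.83 ± 0.14 in EDL, Bcl2l13, a mitochondrial BCL2 family member, -0.59 ± 0.12 and -0.61 ± 0.12, and Tmem116 -2.17 ± 0.43 and -1.92 ± 0.43. The EDL calls of Bcl2l13 (adjusted p = 0.0524) and Tmem116 were lost in a fit of the 18 EDL libraries, and that of Tmem116 also in one of the 12 (adjusted p = 0.179). For the 81 respiratory chain genes the median difference in soleus was 0.0099, with 0 called, against 0.28 in EDL. For fatty acid oxidation 6 of 24 were called lower in soleus (median -0.66), against 0 in EDL. The slow contractile list had a median of -0.0031 in soleus, with 0 called.

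The test of soleus minus EDL, with the muscles of an animal treated as independent, called 2 of 13210 genes (0.0151%), Phkb and Gmnn, and 5 without library 2 of EDL labelled ERRalpha mKO. With the animal as a block, a fit chosen after the data were seen, it called 20 (0.151%), and 9 of them were among the 55 genes: Phkb, Mfn1, P2ry1, Osbpl3, Csrp3, Filip1l, Zfp7, Ltbr and Ttc9. For Mfn1 soleus minus EDL was -0.77 ± 0.17 (adjusted p = 0.103, and 0.0447 with the block), and for Csrp3 5.64 ± 1.33 (adjusted p = 0.135, and 0.0476 with the block). Csrp3 was the one slow contractile gene called with the block, and 0 were called in the respiratory chain and fatty acid oxidation lists by either test. For single genes of those 2 lists a difference between muscles was thus not shown. Soleus minus EDL lay below 0 in 80 of 81 respiratory chain genes (median -0.28). It did so in 24 of 24 fatty acid oxidation genes (median -0.49), against a median of 0.043 over all genes. The lists were not tested as sets. Phkb had a soleus difference of effects of -0.082 ± 0.21, against -2.37 ± 0.21 in EDL. Its change in soleus was -0.018 ± 0.15 in ERRbeta/ERRgamma dmKO and 0.063 ± 0.15 in libraries labelled ERRalpha mKO.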

How the data were processed

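RNA of EDL from 4 groups of 3 mice was analysed, together with the other 24 libraries of the series for the spread. The deposited table holds log2 signals, which its name says the authors quantile normalized. Partek 6.6 and 2 names of a build, GRCm38.p6 and mm10, stand in the submitters' processing notes. How reads were aligned and counted, whether by strand, and in which unit before the logarithm is not given in the sources used here. That the logarithm has base 2 comes from the values, by earlier work on this table. Quantile normalization gives the libraries like distributions, so the most abundant genes have little room to differ. Libraries were made from 400 ng of RNA with a directional kit and 10 PCR cycles, per the labels' protocols.

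Left out of 45802 rows were 27904 without any value and 27 whose gene symbol had become a date (25 with values). A gene was kept where its mean, with missing values at the lowest value (-8.21), exceeded the 25th percentile (-5.24), leaving 13404 of 17873 genes. Missing values stayed missing. limma 3.58.1 (R 4.3.3) with an intensity trend was fitted to all 36 libraries with 12 group means, and p-values were Benjamini-Hochberg adjusted over all genes of a contrast. The scripts were tested on simulated data. Soleus and EDL of an animal were treated as independent, and, as an alternative, joined by limma's duplicateCorrelation through the animal numbers in the column names (14 of 22 animals gave both muscles, consensus correlation 0.137). Gene positions are from GENCODE M21, in which 16 of 54 matched called genes overlap another coding gene.

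The members, gene lists and naming rule were chosen with earlier results of these data known. The rule named the receptors, the 12 largest higher and 12 largest lower differences among called genes whose level reached the median and that had a value in all 12 libraries, and up to 4 called members of a list, or its member of lowest p. P2ry1, Osbpl3, Rgs2, Cetn2, Nxn, Filip1l, Ndufa8, Ndufb8, Ndufb10, St3gal5, Zfp7, Klhl34, Abhd17c, Bcl2l13, Tmem116, Ltbr, Ttc9, AI593442, Cstad and the genes of the closing section were named after their values were seen. Library numbers follow the columns and are names only.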

Additional observations from a re-analysis of the deposited data

Results flagged for a closer look

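Phkb and Gmnn were the 2 genes whose difference of effects differed between the muscles by the direct test (limma, soleus minus EDL, muscles of an animal treated as independent). For Phkb that value was 2.29 ± 0.29 (adjusted p = 0.000189, and 3.08e-05 with the animal as a block): the difference of effects was -0.082 ± 0.21 in soleus and -2.37 ± 0.21 in EDL. All 3 EDL libraries labelled ERRalpha mKO carried the higher signal.

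Gmnn, an inhibitor of DNA replication licensing, had -2.68 ± 0.45 (adjusted p = 0.0118). Its difference of effects was -1.45 ± 0.32 in soleus and 1.23 ± 0.32 in EDL, and with adjusted p = 0.0897 in EDL it is not among the 55 called genes. In EDL it was at 1.91, 1.32 and 1.61 in ERRbeta/ERRgamma dmKO, against 1.66, 1.20 and 1.41 in their wild types, and at 0.58, 1.23 and 0.49 in libraries labelled ERRalpha mKO, against 1.95, 1.92 and 1.54 in their wild types.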

How the results depend on the processing

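None of the 55 called genes reversed its direction under any of 23 alternatives, 11 other settings and 12 fits that each left out 1 EDL library. Fits of EDL alone, other filters, no intensity trend and robust variance shrinkage leave each difference unchanged, so none could reverse there. Of 1256 gene-by-setting values 978 kept the call and 278 lost it. Called under every alternative were 6 of 22 higher genes (Ndufa13, Ndufa1, Mfn1, Ndufb7, Isca1 and P2ry1) and 9 of 33 lower genes (Phkb, Myom3, Ldhb, Cyfip2, Nxn, Filip1l and Cetn2, and Osbpl3 and 1700040L02Rik, each of which could be tested in 22). With the 12 EDL libraries alone the difference called 24 genes (10 higher, 14 lower), the ERRbeta/ERRgamma effect 18, and 4 respiratory chain and 3 slow contractile genes. With the 18 EDL libraries alone 2 slow contractile genes and 13 wild-type differences were called. Array weights gave 108 (44 higher, 64 lower), 88 for the ERRbeta/ERRgamma effect, 939 between knockouts, 15 between wild types, 484 in soleus and 28 for soleus minus EDL. Missing values at the lowest value gave 13 between wild types and 4 for soleus minus EDL. The soleus difference called 111 genes after recentring, 123 among genes at or above the median level and 37 without an intensity trend. The cause of these shifts was not tested. The fits on EDL alone also have fewer libraries behind the spread, and the part of that was not tested either. Recentring the libraries called 60 genes in EDL, 53 of them among the 55.

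Leaving out 1 library gave 34 to 55 called genes (11 to 22 higher, 22 to 35 lower), 11 to 31 for the ERRbeta/ERRgamma effect, 225 to 435 for the ERRalpha effect, 238 to 476 between knockouts, 3 to 11 between wild types, 50 to 85 in soleus, 2 to 5 for soleus minus EDL, 8 to 13 respiratory chain genes and 4 to 6 slow contractile genes. The higher genes numbered 11 without ERRbeta/ERRgamma dmKO library 3, 13 without ERRbeta/ERRgamma wild-type library 1 and 14 without library 1 labelled ERRalpha mKO. The columns carry no replicate numbers of the labels. With the animal as a replicate block over both muscles, added after the data were seen, 61 genes were called in the EDL difference, 54 of them among the 55 (Ptpmt1 was lost), and 20 for soleus minus EDL. The other counts stayed within 1.5 times. With 3 animals per group and an unknown depth, a gene that missed the threshold is not shown to respond alike in the classes. The median SE of the difference over all genes was 0.26.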

Other observations

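Some genes of low signal carried large differences of effects. The gene 1700040L02Rik was at -4.59, -5.64 and -5.70 in ERRbeta/ERRgamma dmKO, against -5.71, -5.73 and -4.69 in their wild types. The libraries labelled ERRalpha mKO had 0.50, 0.81 and 0.67, against -3.54, no value and -4.72 in their wild types (difference -4.72 ± 0.82, adjusted p = 0.00302), and the missing value was left missing in the fit. It also rose in EDL of ERRalpha/ERRgamma dmKO (2.41 ± 0.54, adjusted p = 0.00183). Cyfip2, a regulator of actin branching, was at -2.75, -2.66 and -3.50 in ERRbeta/ERRgamma dmKO, against -1.64, -0.95 and -1.17 in their wild types. Its signals were -0.023, -0.77 and -0.47 in libraries labelled ERRalpha mKO, against -1.25, -2.28 and -2.71 in their wild types. Neither pair of Cyfip2 groups overlapped, and the difference was -3.37 ± 0.56 (adjusted p = 0.00218). Cyfip2 overlaps Fndc9 on the other strand.

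Tmem116 was at -0.76, -0.82 and -1.50 in ERRbeta/ERRgamma dmKO, against -1.46, -2.62 and -1.36 in their wild types. EDL labelled ERRalpha mKO showed 1.47, 1.23 and 1.32, against -0.82, -1.47 and -1.80 in their wild types. Its difference was -1.92 ± 0.43 in EDL (adjusted p = 0.0384) and -2.17 ± 0.43 in soleus (adjusted p = 0.0189), and with 1 library left out at a time the EDL difference was called in 3 of 12 fits (adjusted p up to 0.153, without ERRbeta/ERRgamma dmKO library 3). In annotation it overlaps 4 coding genes, among them Erp29.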
